A study of Mus musculus with 19 samples.

Results

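Transcripts of the Nodal pathway were followed in mouse embryonic stem cells that had lost Trim71, Lin28a or both genes. The genes were chosen by name as Nodal, its inhibitors Lefty1 and Lefty2, its co-receptor Tdgf1, its receptor Acvr2b, its transcription partner Foxh1, and the feedback genes Smad7, Skil and Cer1. Of these 9 genes, 8 had a row among the 21685 genes of the deposited table, and Cer1 was not analysed here. The choice was made with results of these data in view, so the differences between genotypes of the 8 genes are given as a description, with SE and 95% confidence interval and without p-values. Where a call is named for any of them below, it describes the fit and is not evidence about the set.

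Nodal is a secreted signal of the TGF-beta family that binds activin receptors together with the co-receptor Tdgf1, also called Cripto. The activated receptors phosphorylate SMAD2 and SMAD3, which join SMAD4 and partners such as FOXH1 on target genes. Nodal, Lefty1, Lefty2 and Smad7 are themselves targets of the pathway, and the Lefty proteins and SMAD7 restrain it. In embryonic stem cells of the mouse the pathway is active in culture and is best known for its later part in forming mesoderm and endoderm. LIN28A is an RNA-binding protein that blocks the maturation of let-7 microRNAs, and TRIM71 is an RNA-binding protein and ubiquitin ligase whose message is itself a let-7 target.

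All cells were male C57BL/6 embryonic stem cells, grown in serum with LIF and enriched for the surface antigen SSEA-1 on magnetic beads. In each genotype name the state of Trim71 precedes that of Lin28a: WT-WT (Trimfl/fl - Lin28afl/fl, n = 4), KO-WT (Trim-/- - Lin28afl/fl, n = 4), WT-KO (Trimfl/fl - Lin28a-/-, n = 5) and KO-KO (Trim-/- - Lin28a-/-, n = 5). Trim71 was deleted in culture with 4-hydroxytamoxifen at 500 nM over 2 days, and the cells were then kept for at least 7 days; the floxed allele is counted as intact. The labels name no Cre and do not say whether the floxed controls received the drug. WT-WT and KO-WT libraries came from clones 1 and E3, and WT-KO and KO-KO libraries from clones 1-4 and C1. Lin28a state and clone therefore cannot be told apart, while Trim71 states were compared within the same clones. The labels give each library a day but do not say that libraries came from separate cultures, so the p-values measure the spread between these libraries, which may be partly technical.

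Levels were deposited as log2 values from which differences between days had already been removed, and the read depth is unknown. All values below are log2 normalised levels unless another scale is named. With Lin28a intact, Trim71 averaged 10.21 ± 0.121 (SD, n = 4) with the floxed allele and 8.89 ± 0.138 (SD, n = 4) after its deletion, a difference of -1.31 ± 0.12 (SE; limma adjusted p = 2.39e-05). In the Lin28a-null clones the means were 10.65 ± 0.203 and 9.28 ± 0.179 (SD, n = 5 each). Lin28a averaged 10.13 ± 0.158 in WT-WT against 8.47 ± 0.0881 (SD) in WT-KO, and 9.84 ± 0.108 in KO-WT against 8.28 ± 0.0621 (SD) in KO-KO. Each of the 2 messages also differed with the state of the other gene. Lin28a differed by -0.28 ± 0.0812 (SE, limma adjusted p = 0.036) in KO-WT against WT-WT, and by -0.19, not called, in KO-KO against WT-KO. Trim71 was higher by 0.45 (limma adjusted p = 0.00431) in WT-KO against WT-WT and by 0.38 (0.0111) in KO-KO against KO-WT. Neither message was absent from its null cells, and the labels do not give the deleted exons. Of the stem cell markers Pou5f1, Nanog, Sox2, Zfp42, Esrrb and Fut4, 5 of 6 passed the filter on low values. Fut4, a fucosyltransferase, did not exceed 3.41 in any library. Because these are bulk samples, fewer cells of a type and less RNA per cell cannot be told apart.

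The microRNAs named below are shown because let-7 is the family that LIN28A restrains and the miR-294 and miR-302 families are the abundant microRNAs of mouse embryonic stem cells. The mature sequences, from RefSeq, carry the seed (bases 2 to 8) in capitals. MiR-294-3p and miR-302d-3p share 1 seed, and let-7a-5p has another. MicroRNA levels were not analysed here.
let-7a-5p: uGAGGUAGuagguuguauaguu
miR-294-3p: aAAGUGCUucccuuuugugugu
miR-302d-3p: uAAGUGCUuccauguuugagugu

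The 3′UTRs of the 8 genes were searched on the sense strand for the complements of these seeds, CTACCTC for let-7 and AGCACTT for miR-294 and miR-302d. CTACCTC was present in 1 of the 8 3′UTRs, that of Skil, at chr3:31122340-31122369 on the plus strand of GRCm38. AGCACTT was present in 2 of the 8, those of Lefty1 at chr1:180938201-180938230 and Lefty2 at chr1:180897905-180897934, both on the plus strand. The matches are in capitals within 30 bases of each 3′UTR.
Skil: caaaactgtcctCTACCTCacgtgaaataa
Lefty1: cactgtatgcgaAGCACTTacatgtataga
Lefty2: tcacccagtttaAGCACTTacatgggtaaa

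The Lefty1 and Lefty2 windows share an ungapped run of 13 bases, aAGCACTTacatg, that covers the match. Of 12510 tested genes with a 3′UTR, 10.6% held CTACCTC and 17.3% held AGCACTT. Among 3′UTRs of similar length (0.8 to 1.25 times), CTACCTC was in 22.9% of 1163 for Skil, and AGCACTT was in 4.53% of 1169 for Lefty1 and in 15% of 1984 for Lefty2. A match of these letters is a description of the sequence and was not tested as a site.

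Per kilobase of transcript in WT-WT cells, Tdgf1 had the highest level of the 8 genes, at 11.47 on the log2 scale. Nodal followed at 8.31 log2 per kilobase, ahead of Foxh1 at 7.43 and Skil at 7.04. Lefty1 at 6.49 and Smad7 at 6.32 log2 per kilobase stood close together, above Acvr2b at 5.89 and Lefty2 at 5.07. The difference of 0.17 between Lefty1 and Smad7 is smaller than the SD of 0.226 between the 4 WT-WT libraries for Lefty1. Both Lefty genes were thus at a lower level than the ligand they inhibit in cells with both genes intact. Lefty1 and Lefty2 are close copies: 281 of the 1571 stretches of 50 bases in the Lefty1 transcript (17.9%) were also in that of Lefty2, where they made up 11.6%. How reads were shared between them is not given in the sources used here, so their separate levels are uncertain.

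**Figure D1:**
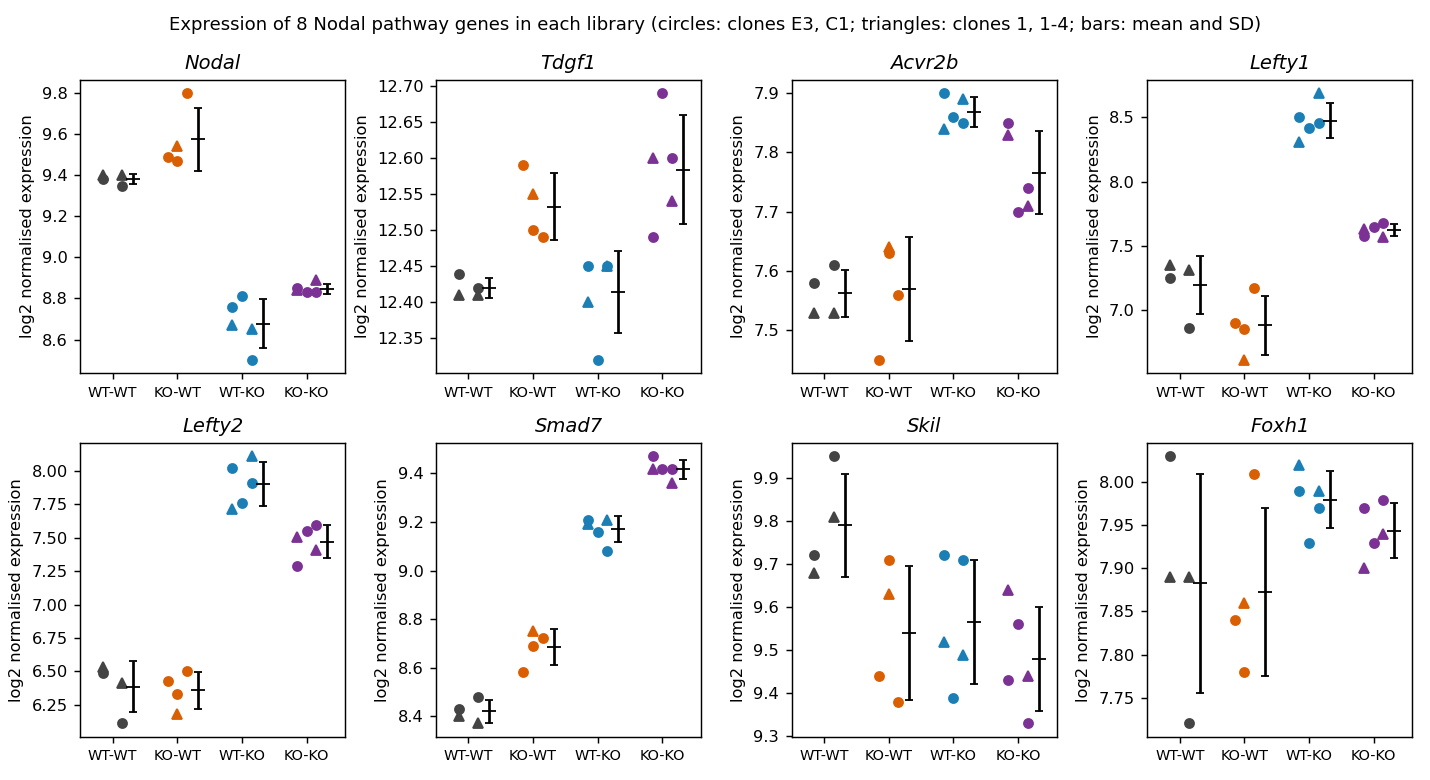
Log2 normalised level of 8 Nodal pathway genes in each of 18 libraries, by genotype; circles are clones E3 and C1, triangles are clones 1 and 1-4, and bars give the mean and SD. Nodal lay between 9.35 and 9.80 in all Lin28a-intact libraries and between 8.50 and 8.89 in all Lin28a-null libraries, and Lefty1 and Lefty2 were highest in WT-KO.

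The first question was how the ligand and its inhibitors stood in cells without Lin28a. Nodal was lower, and both Lefty genes, the feedback inhibitor Smad7 and the receptor Acvr2b were higher, in Lin28a-null than in Lin28a-intact clones, whether Trim71 was intact or lost. The limma test with adjusted p under 0.05 over all genes called 5 of the 8 genes with Trim71 intact, 4 higher and 1 lower, where 42.4% of the 14988 tested genes were called (20.3% higher, 22% lower). With Trim71 lost it called 5 of the 8, again 4 higher and 1 lower, beside 42.8% of all tested genes (20.8% higher, 22% lower). The median absolute difference was 0.505 over the 8 genes against 0.155 over all tested genes with Trim71 intact, and 0.462 against 0.155 with Trim71 lost. Since these contrasts chose the genes, no conclusion is drawn from those counts.

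Nodal in the 4 WT-WT libraries measured 9.40, 9.38, 9.35 and 9.40, and in the 5 WT-KO libraries 8.67, 8.76, 8.81, 8.50 and 8.65. It measured 9.49, 9.47, 9.80 and 9.54 in KO-WT and 8.84, 8.85, 8.83, 8.83 and 8.89 in KO-KO. No Lin28a-null library reached the lowest Lin28a-intact one. Groups that do not overlap were found for 40.8% of all tested genes with Trim71 intact and for 40.7% with Trim71 lost. The difference was -0.70 ± 0.07 (SE; 95% interval -0.85 to -0.55) with Trim71 intact, a level 1.63-fold lower, and -0.73 ± 0.07 (SE; -0.88 to -0.58) with Trim71 lost, 1.66-fold lower. Nodal was lower in the Lin28a-null library of all 4 same-day pairs in each state of Trim71. How often all same-day pairs agree over all tested genes was not computed, so pair counts here and below only describe the libraries.

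Lefty1, which binds Nodal and blocks its receptor complex, measured 7.35, 7.25, 6.86 and 7.31 in WT-WT and 8.31, 8.50, 8.42, 8.46 and 8.69 in WT-KO. In cells without Trim71 it measured 6.90, 6.85, 7.17 and 6.61 in KO-WT and 7.63, 7.58, 7.65, 7.68 and 7.57 in KO-KO. The Lin28a-null libraries lay above the Lin28a-intact ones in both settings, with no overlap. Lefty1 was higher by 1.28 ± 0.115 (SE; 95% interval 1.04 to 1.53), or 2.44-fold, with Trim71 intact. With Trim71 lost the difference was 0.74 ± 0.115 (SE; 0.49 to 0.98), or 1.67-fold. Each of the 4 same-day pairs was higher in both settings.

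Lefty2, the second Nodal inhibitor, measured 6.53, 6.49, 6.11 and 6.41 in WT-WT and 7.72, 8.02, 7.76, 7.91 and 8.11 in WT-KO. It measured 6.43, 6.33, 6.50 and 6.18 in KO-WT and 7.51, 7.29, 7.55, 7.60 and 7.41 in KO-KO. The groups did not overlap, and the gap between the Lin28a states was larger than for Lefty1. Lefty2 was higher by 1.52 ± 0.109 (SE; 95% interval 1.29 to 1.75), or 2.87-fold, with Trim71 intact and by 1.11 ± 0.109 (SE; 0.88 to 1.34), or 2.16-fold, with Trim71 lost. Whether the gap of Lefty2 exceeds that of Lefty1 was not tested.

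Smad7, an inhibitory SMAD that acts on the receptors, measured 8.40, 8.43, 8.48 and 8.37 in WT-WT and 9.19, 9.21, 9.16, 9.08 and 9.21 in WT-KO. It measured 8.58, 8.69, 8.72 and 8.75 in KO-WT and 9.42, 9.47, 9.42, 9.42 and 9.36 in KO-KO. The 4 genotypes formed 4 separate ranges in the order WT-WT, KO-WT, WT-KO and KO-KO. The difference with Lin28a loss was 0.75 ± 0.0482 (SE; 95% interval 0.65 to 0.85), or 1.68-fold, with Trim71 intact and 0.73 ± 0.0482 (SE; 0.63 to 0.83), or 1.66-fold, with Trim71 lost.

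Acvr2b, a type II receptor for activin and Nodal, measured 7.53, 7.58, 7.61 and 7.53 in WT-WT and 7.84, 7.90, 7.86, 7.85 and 7.89 in WT-KO. It measured 7.45, 7.63, 7.56 and 7.64 in KO-WT and 7.83, 7.85, 7.70, 7.74 and 7.71 in KO-KO. All Lin28a-null libraries were above all Lin28a-intact libraries, by a narrower margin than for the Lefty genes. The difference was 0.31 ± 0.0556 (SE; 95% interval 0.19 to 0.43) with Trim71 intact and 0.20 ± 0.0556 (SE; 0.08 to 0.31) with Trim71 lost. Without KO-WT replicate 1 the second difference was 0.14 and was no longer called.

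Tdgf1, Foxh1 and Skil overlapped between the Lin28a states. Tdgf1 ran from 12.41 to 12.44 in WT-WT and from 12.32 to 12.45 in WT-KO, a difference of -0.01 ± 0.0464 (SE; 95% interval -0.11 to 0.09). Its sign depended on the scale, since the difference was 0.12 after correction for transcript GC content and length. Foxh1 ran from 7.72 to 8.03 in WT-WT and from 7.93 to 8.02 in WT-KO, a difference of 0.10 ± 0.063 (SE; -0.04 to 0.23). Skil, a co-repressor of SMADs that the pathway degrades and then restores, ran from 9.68 to 9.95 in WT-WT and from 9.39 to 9.72 in WT-KO. Its difference was -0.22 ± 0.0924 (SE; -0.42 to -0.03), and it was lower in all 4 same-day pairs without being called. Skil was called in 5 of 18 fits that left out 1 library, in the fit of the 2 genotypes alone (-0.26) and in clones 1 and 1-4 alone (-0.24), and its difference was -0.10, not called, after correction for GC content and length. With Trim71 lost the differences were 0.05 ± 0.0464 (SE) for Tdgf1, 0.07 ± 0.063 (SE) for Foxh1 and -0.06 ± 0.0924 (SE) for Skil. After correction for GC content and length they were 0.13 for Tdgf1, 0.18 for Foxh1 and -0.16 for Skil, and all 3 were called.

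The Lin28a differences had the same sign in both clone sets for Nodal, Lefty1, Lefty2, Smad7 and Acvr2b. That of Tdgf1 with Trim71 intact was -0.03 in clones E3 and C1 and 0.01 in clones 1 and 1-4. In clones E3 and C1 alone the difference with Trim71 intact was -0.67 for Nodal, 1.42 for Lefty1, 1.61 for Lefty2 and 0.69 for Smad7. In clones 1 and 1-4 alone it was -0.74 for Nodal, 1.17 for Lefty1, 1.44 for Lefty2 and 0.81 for Smad7. With Trim71 lost the values in E3 and C1 and then in 1 and 1-4 were -0.75 and -0.67 for Nodal, 0.66 and 1.04 for Lefty1, 1.06 and 1.31 for Lefty2, and 0.77 and 0.63 for Smad7. For Acvr2b they were 0.22 and 0.12 and were called in neither set, and with Trim71 intact its difference of 0.27 in E3 and C1 was not called while that of 0.34 in 1 and 1-4 was.

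Markers of differentiated lineages also stood apart between the Lin28a states. The summed linear level of 9 primitive endoderm markers, of which 7 passed the filter, was 530 to 735 in WT-WT and 614 to 962 in KO-WT, against 107 to 142 in WT-KO and 128 to 183 in KO-KO. The defining endoderm genes Sox17 and Foxa2 did not pass the filter and did not exceed 3.59 in any library. The sum of 8 trophectoderm markers was 4500 to 6000 in WT-WT and 4500 to 5510 in KO-WT, against 1070 to 1290 in WT-KO and 943 to 1190 in KO-KO, with Cdx2 and Elf5 below the filter. That sum mostly follows the keratins Krt8 and Krt18, the highest of the list in WT-WT at 10.96 and 10.80, against 6.74 and 6.60 in WT-KO. In WT-KO the highest was Tfap2c, at 9.82. Hand1 and Gata3, at lower levels, differed by -2.88 and -1.47 in WT-KO against WT-WT. The sum of the 6 stem cell markers was 18300 to 19100 in WT-WT and 19000 to 20000 in KO-WT, against 24500 to 27000 in WT-KO and 25400 to 27400 in KO-KO. Single markers differed within the sums: in WT-KO against WT-WT Nanog was higher by 0.86 and Esrrb by 0.63, while Zfp42 differed by -0.03, and the trophectoderm marker Tfap2c differed by 0.13 and was not called. Of 8 fibroblast markers 3 had a row, and their sum was 93 to 118 in WT-WT and 64.4 to 70.8 in WT-KO. The part of these cell type differences in the Nodal pathway values was not tested.

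**Figure D2:**
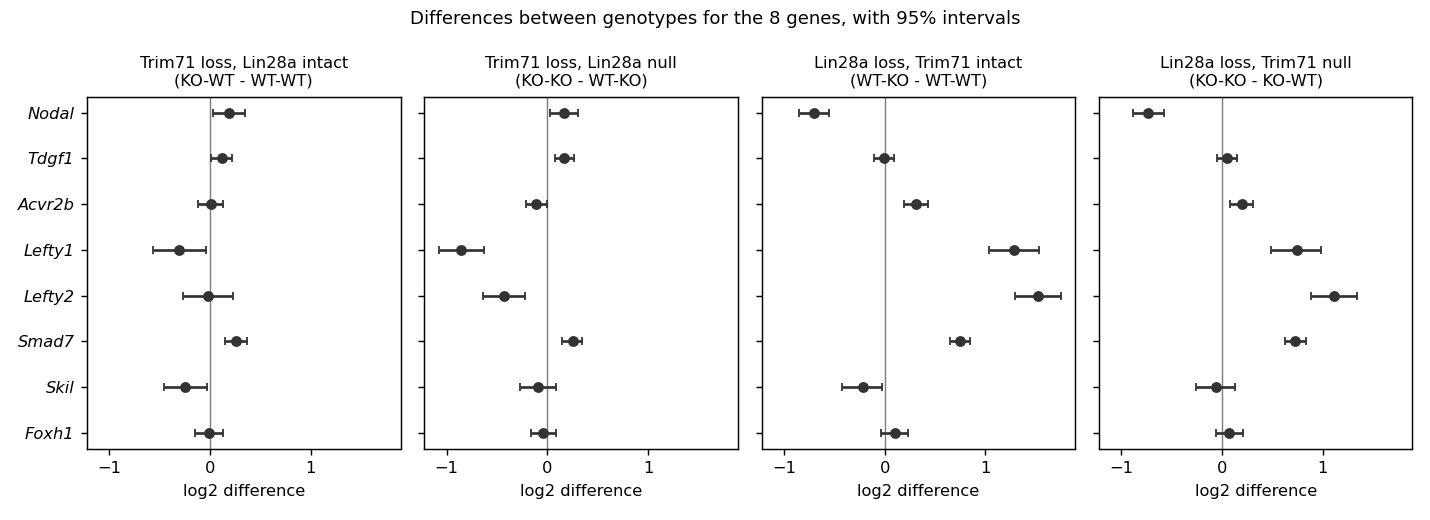
Log2 difference with 95% confidence interval for the 8 genes in 4 contrasts between genotypes, 1 panel each. The Lin28a panels show Nodal at -0.70 and -0.73 and Lefty2 at 1.52 and 1.11, and the Trim71 panels show Lefty1 at -0.31 with Lin28a intact and -0.86 with Lin28a null.

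The second question was how loss of Trim71 moved the same genes within a Lin28a state. In Lin28a-null clones both Lefty genes were lower, and Smad7 and Tdgf1 higher, without Trim71. In Lin28a-intact clones Smad7 was higher by a like amount, and the Lefty genes overlapped between the genotypes. Of the 8 genes, 4 were called in the Lin28a-null clones, 2 higher and 2 lower, beside 8.38% of all tested genes (4.26% higher, 4.12% lower). In the Lin28a-intact clones 1 of the 8 was called, as higher, beside 11.2% of all tested genes (4.74% higher, 6.43% lower). Because the genes were chosen with results of these data in view, no conclusion is drawn from these counts either.

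Lefty1 in KO-KO, at 7.57 to 7.68, lay below every WT-KO library, at 8.31 to 8.69, and still above every WT-WT library. The difference was -0.86 ± 0.106 (SE; 95% interval -1.08 to -0.63), a level 1.81-fold lower, and Lefty1 was lower in all 5 same-day pairs, with differences between -1.12 and -0.68. With Lin28a intact the difference was -0.31 ± 0.124 (SE; -0.57 to -0.04), the ranges overlapped, and 1 of 3 same-day pairs was higher. That pair, on day 4, differed by 0.31, while those on days 3 and 5 differed by -0.40 and -0.70. The 2 clone sets also differed, at -0.06 in clones E3 and C1 and -0.77 in clones 1 and 1-4, where KO-WT has 1 library. Without WT-WT replicate 3 the difference was -0.47, and without KO-WT replicate 3 it was -0.45, and in both cases it was called. It was also called, at -0.41, after correction for GC content and length.

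Lefty2 in KO-KO, at 7.29 to 7.60, lay below every WT-KO library, at 7.72 to 8.11. The difference was -0.43 ± 0.101 (SE; 95% interval -0.64 to -0.22), or 1.35-fold lower, and all 5 same-day pairs were lower. It was -0.36 and no longer called without WT-KO replicate 5 or without KO-KO replicate 2. Nor was it called in either clone set alone, at -0.41 in clones E3 and C1 and -0.45 in clones 1 and 1-4. With Lin28a intact the Lefty2 ranges overlapped, and the difference was -0.02 ± 0.118 (SE; -0.27 to 0.23). It was 0.13 in clones E3 and C1 and -0.32 in clones 1 and 1-4.

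The Trim71 effect in Lin28a-null cells minus that in Lin28a-intact cells was -0.55 ± 0.163 (SE; 95% interval -0.89 to -0.20) for Lefty1 and -0.41 ± 0.155 (SE; -0.74 to -0.08) for Lefty2. The limma test called 0 of the 8 genes for this interaction, where 0.02% of all tested genes were called. At an unadjusted p under 0.05 there were 2 of the 8, Lefty1 and Lefty2, beside 2256 of the 14988 tested genes. The Trim71 effect was therefore not shown to differ between the Lin28a states for any of the 8 genes. The interaction of Lefty1 was -0.76 in clones E3 and C1 and -0.13 in clones 1 and 1-4, and that of Lefty2 was -0.55 and -0.14.

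Smad7 was higher without Trim71 by 0.26 ± 0.0521 (SE; 95% interval 0.15 to 0.37), or 1.20-fold, with Lin28a intact. In Lin28a-null clones it was higher by 0.25 ± 0.0446 (SE; 0.15 to 0.34), or 1.19-fold. All 3 and all 5 same-day pairs were higher, and no genotype overlapped another. The Trim71 differences of Smad7 were smaller than its Lin28a differences of 0.75 and 0.73, which were measured between clones.

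Nodal was above its control in every same-day pair, 3 of 3 with Lin28a intact and 5 of 5 with Lin28a null. The differences were 0.19 ± 0.0756 (SE; 95% interval 0.03 to 0.35) and 0.17 ± 0.0647 (SE; 0.03 to 0.30), and neither was called. The ranges did not overlap in either comparison, but the highest WT-KO library at 8.81 and the lowest KO-KO library at 8.83 stood close together. Separate ranges were found for 28.2% of all tested genes with Lin28a intact and for 12.6% with Lin28a null. No such share was computed for the agreement of same-day pairs. Without KO-WT replicate 3 the difference in Lin28a-null clones was still 0.17 and was called.

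Tdgf1 measured 12.41, 12.44, 12.42 and 12.41 in WT-WT and 12.59, 12.50, 12.49 and 12.55 in KO-WT. It measured 12.40, 12.45, 12.32, 12.45 and 12.45 in WT-KO and 12.60, 12.49, 12.69, 12.60 and 12.54 in KO-KO. Libraries without Trim71 lay above their controls in both settings, by small amounts. The difference was 0.12 ± 0.0501 (SE; 95% interval 0.01 to 0.22) with Lin28a intact and 0.17 ± 0.0429 (SE; 0.08 to 0.26) with Lin28a null. The first was 0.18 and called after correction for GC content and length. The second was no longer called without WT-KO replicate 1 (0.17), KO-KO replicate 1 (0.17) or KO-KO replicate 3 (0.14). Nor was it called in clones E3 and C1 alone (0.19), clones 1 and 1-4 alone (0.15) or the 2 genotypes alone (0.17).

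Foxh1, Skil and Acvr2b overlapped between the Trim71 states. Foxh1 differed by -0.01 ± 0.0681 (SE; 95% interval -0.15 to 0.13) with Lin28a intact and -0.04 ± 0.0583 (SE; -0.16 to 0.09) with Lin28a null. Skil, the gene of the 8 with a let-7 seed match, differed by -0.25 ± 0.0999 (SE; -0.46 to -0.03) and -0.09 ± 0.0855 (SE; -0.27 to 0.09), and the first was -0.04 after correction for GC content and length. Acvr2b differed by 0.01 ± 0.0601 (SE; -0.12 to 0.13) and -0.11 ± 0.0514 (SE; -0.21 to 0.00), the second lower in all 5 same-day pairs. The primitive endoderm and trophectoderm marker sums given above overlapped between the Trim71 states in both Lin28a states. Among single markers, Sox7 rose by 0.38 ± 0.0932 (SE; limma adjusted p = 0.0189) and Tfap2c fell by 0.22 ± 0.0631 (SE; adjusted p = 0.0376) in KO-KO against WT-KO. Their part in the values of the 8 genes was not tested.

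**Figure D3:**
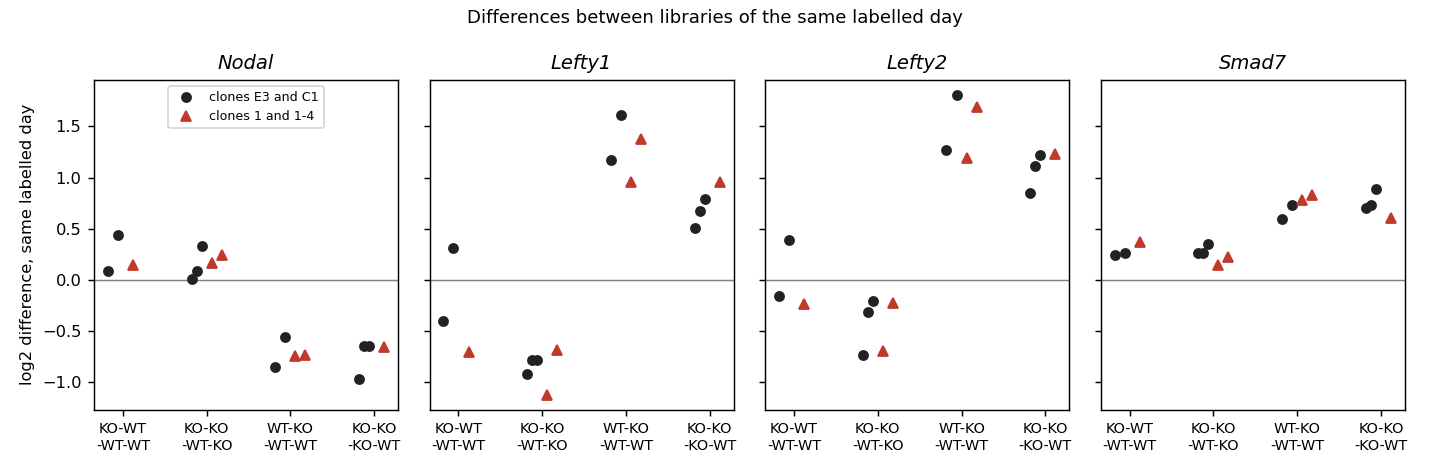
Log2 difference between 2 libraries of the same labelled day for Nodal, Lefty1, Lefty2 and Smad7 in 4 contrasts; each point is 1 pair, circles from clones E3 and C1 and triangles from clones 1 and 1-4. Lefty1 was lower in all 5 KO-KO pairs against WT-KO, from -1.12 to -0.68, while the 3 KO-WT pairs against WT-WT ran from -0.70 to 0.31.

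Across the 18 libraries the 2 Lefty genes varied together and opposite to Nodal. Pearson's r was 0.932 between Lefty1 and Lefty2, -0.858 between Nodal and Lefty1 and -0.935 between Nodal and Lefty2. Nodal also had an r of -0.798 with Smad7 and -0.885 with Acvr2b. These values are a description over 4 genotypes and include the gap between the Lin28a states. The points share clones and the removal of day differences. No r was computed within a genotype, where the genes did not always run opposite. WT-WT replicate 3 had the lowest Nodal (9.35) and the lowest Lefty1 (6.86) of its group. KO-WT replicate 3 had the highest of both (9.8 and 7.17). KO-KO replicate 5 had the highest Nodal (8.89) and the lowest Lefty1 (7.57). Outside the 8 genes, Sars (r = 0.981), Mcm2 (0.978) and Mcm3 (0.974) were most like Lefty1 over the 18 libraries. Phlda2 (r = 0.984), Sod2 (0.983) and Brpf3 (0.982) were most like Lefty2. For Nodal they were 1700007K13Rik (r = 0.989), Gsto1 (0.985) and Bin1 (0.984).

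Beyond the 8 genes, a list of 44 other genes of the Nodal and activin pathway was followed, of which 40 had a row and 31 were tested. The list was drawn up with earlier results of these data known. The untested genes with a row, at or under 3.59 in every library, included Cfc1, Fgf5, Fgf8, Foxa2, Gsc, Mixl1, Sox17 and T. Among these are mesoderm and endoderm genes that Nodal is known to induce in the embryo. With loss of Trim71, 6 of the 31 were called with Lin28a intact (3 higher, 3 lower) and 5 of the 31 with Lin28a null (4 higher, 1 lower), beside 11.2% and 8.38% of all tested genes. With loss of Lin28a, 16 of the 31 were called with Trim71 intact (8 higher, 8 lower) and 17 of the 31 with Trim71 lost (8 higher, 9 lower), beside 42.4% and 42.8%. The median difference of the list was -0.004, -0.002, -0.026 and -0.002 in these 4 contrasts, and that of all tested genes -0.005, -0.009, -0.008 and -0.001. The limma interaction test called 0 of the 31, with 5 of the 31 at an unadjusted p under 0.05, beside 2256 of the 14988 tested genes.

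Among the ligands and the proteases that mature them, 2 of 4 tested genes were called in each contrast, and they were Inhbb and Gdf3 each time. Over all tested genes 11.2% and 8.38% were called with loss of Trim71, and 42.4% and 42.8% with loss of Lin28a. Inhbb encodes the beta B chain of activin B, a ligand of the same receptors. Its mean was 7.26 ± 0.109 in WT-WT and 8.14 ± 0.167 in KO-WT (SD, n = 4 each), and 7.94 ± 0.108 in WT-KO and 8.94 ± 0.111 in KO-KO (SD, n = 5 each). Inhbb rose with loss of Trim71 by 0.88 ± 0.0946 (SE; limma adjusted p = 8.32e-05) with Lin28a intact and by 1.00 ± 0.081 (SE; adjusted p = 2.83e-06) with Lin28a null. It was also higher with loss of Lin28a, by 0.68 ± 0.0875 (SE; limma adjusted p = 1.47e-05) and 0.80 ± 0.0875 (SE; adjusted p = 2.94e-06). All same-day pairs were higher, 3 of 3 and 5 of 5 for Trim71 and 4 of 4 in each Lin28a comparison. In clones E3 and C1 alone the first Trim71 difference was 0.74 with adjusted p = 0.0512.

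Gdf3, a ligand that uses the same co-receptor, averaged 9.16 ± 0.101 in WT-WT and 8.90 ± 0.115 in KO-WT (SD, n = 4 each), and 10.17 ± 0.0767 in WT-KO and 9.87 ± 0.0657 in KO-KO (SD, n = 5 each). It fell with loss of Trim71, with differences of -0.26 ± 0.0704 (SE; limma adjusted p = 0.0285) with Lin28a intact and -0.30 ± 0.0603 (SE; adjusted p = 0.00552) with Lin28a null. It was higher with loss of Lin28a, by 1.01 ± 0.0651 (SE; limma adjusted p = 7.92e-09) and 0.97 ± 0.0651 (SE; adjusted p = 1.18e-08). The first call was lost without WT-WT replicate 1 (adjusted p = 0.0585), WT-WT replicate 4 (0.104), KO-WT replicate 3 (0.0598) or KO-WT replicate 4 (0.0976), and in clones E3 and C1 alone, where the difference was -0.11. The Gdf3 3′UTR held a let-7 seed match, at chr6:122606017-122606046 on the minus strand of GRCm38.
Gdf3: attctctttcctCTACCTCctgtgtgctgg

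Of 4 inhibitors outside the cell, none was called with loss of Trim71, beside 11.2% (Lin28a intact) and 8.38% (Lin28a null) of all tested genes. With loss of Lin28a, Fst, which encodes the activin-binding follistatin, fell by 0.42 ± 0.102 (SE; limma adjusted p = 0.00381) with Trim71 intact and by 0.33 ± 0.102 (SE; adjusted p = 0.0173) with Trim71 lost. The second Fst call was lost without KO-KO replicate 2 (adjusted p = 0.0574), KO-WT replicate 1 (0.0629) or KO-WT replicate 4 (0.0614). In WT-KO against WT-WT 1 of the 4 was called lower, and in KO-KO against KO-WT 3 of the 4, beside 22% of all tested genes in each. Inha went the other way, by 0.13 and 0.23, and was called in neither. Lefty1 and Lefty2, which also act outside the cell, were higher in these comparisons.

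Of 5 receptors tested, the TGF-beta receptor Tgfbr2 had the largest difference of the 31 genes in both Lin28a comparisons. Every Lin28a-intact library, at 4.25 or higher, was above the filter level of 3.32 on the log2 scale. The Lin28a-null libraries lay near that level, from 2.89 to 3.34 in WT-KO and from 3.18 to 4.07 in KO-KO. Tgfbr2 therefore has differences of uncertain size. It averaged 4.67 in WT-WT and 3.14 in WT-KO, a difference of -1.53 ± 0.186 (SE; limma adjusted p = 8.5e-06), and 4.90 in KO-WT and 3.52 in KO-KO, a difference of -1.38 ± 0.186 (SE; adjusted p = 2.3e-05). Acvr1b, the type I receptor of activin and Nodal, rose by 0.22 ± 0.055 (SE; limma adjusted p = 0.0194) with loss of Trim71 in Lin28a-null clones, in 4 of 5 same-day pairs. Leaving out any of 5 single libraries ended that call: WT-KO replicate 1 (adjusted p = 0.0682), WT-KO replicate 2 (0.0566), WT-KO replicate 4 (0.0561), KO-KO replicate 1 (0.0756) or KO-KO replicate 2 (0.0763). Tgfbr1 fell by 0.32 ± 0.0851 (SE; limma adjusted p = 0.0285) with loss of Trim71 in Lin28a-intact clones. It was no longer called without WT-WT replicate 3 (adjusted p = 0.122), WT-WT replicate 4 (0.0664) or KO-WT replicate 3 (0.121), nor after correction for GC content and length (0.212), where the difference was -0.12.

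Of 6 SMADs and partners, Zfyve9, the membrane anchor that presents SMADs to the receptor, fell by 0.36 ± 0.071 (SE; limma adjusted p = 0.00656) with loss of Trim71 in Lin28a-intact clones. It rose with loss of Lin28a by 0.32 ± 0.0657 (SE; limma adjusted p = 0.000974) with Trim71 intact and by 0.51 ± 0.0657 (SE; adjusted p = 1.55e-05) with Trim71 lost. Of the SMADs that carry the signal, Smad2 and Smad4 were called in none of the 4 contrasts. Smad3 fell with loss of Lin28a by 0.25 ± 0.0762 (SE; limma adjusted p = 0.015) with Trim71 intact and by 0.21 ± 0.0762 (SE; adjusted p = 0.0366) with Trim71 lost.

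Of 9 negative regulators inside the cell, 2 were called with loss of Trim71 in each Lin28a state, beside 11.2% and 8.38% of all tested genes. With loss of Lin28a, 6 were called with Trim71 intact (3 higher, 3 lower), beside 42.4% of all tested genes. With Trim71 lost, 3 were called (1 higher, 2 lower), beside 42.8%. Pmepa1 and Tgif1 were called in all 4 contrasts, and the share of all tested genes called in all 4 was not computed. Pmepa1, a feedback gene that holds SMADs away from the receptor, averaged 7.17 in WT-WT, 7.65 in KO-WT, 6.75 in WT-KO and 7.29 in KO-KO. It rose with loss of Trim71 by 0.48 ± 0.0968 (SE; limma adjusted p = 0.00773) and 0.54 ± 0.0829 (SE; adjusted p = 0.000957). It fell with loss of Lin28a, with differences of -0.42 ± 0.0895 (SE; limma adjusted p = 0.0013) and -0.36 ± 0.0895 (SE; adjusted p = 0.0039), opposite in sign to Smad7. Tgif1, a co-repressor of SMADs, rose by 0.14 ± 0.041 (SE; limma adjusted p = 0.0448) and 0.16 ± 0.0351 (SE; adjusted p = 0.011) with loss of Trim71. It rose by 0.29 ± 0.0379 (SE; limma adjusted p = 1.75e-05) and 0.31 ± 0.0379 (SE; adjusted p = 8.07e-06) with loss of Lin28a. The first Tgif1 call was lost in 12 of 18 fits that left out 1 library, with an adjusted p of up to 0.143.

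Of 3 downstream genes tested, Otx2, a homeobox gene of the primed state and anterior tissue, fell with loss of Lin28a. It averaged 5.41 in WT-WT, 5.39 in KO-WT, 4.51 in WT-KO and 4.30 in KO-KO. The differences were -0.90 ± 0.136 (SE; limma adjusted p = 7.27e-05) with Trim71 intact and -1.09 ± 0.136 (SE; adjusted p = 1.03e-05) with Trim71 lost. None of the 3 was called with loss of Trim71, beside 11.2% (Lin28a intact) and 8.38% (Lin28a null) of all tested genes. Of the mesendoderm markers only Eomes was tested, and the list's summed linear level was 52.6 to 60.4 in WT-WT, 60.5 to 70.6 in KO-WT, 56.4 to 64.6 in WT-KO and 59.9 to 67.7 in KO-KO. The mesendoderm sums of WT-WT and KO-WT thus did not overlap but nearly touched, at 60.4 and 60.5. Separate ranges were found for 28.2% of all tested genes in that comparison. Eomes differed there by 0.26 ± 0.0936 (SE) and was not called (limma adjusted p = 0.0797). The part of the mesendoderm sum in the Trim71 values was not tested.

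The 3′UTRs of 10 called genes of the list were searched in the same way. Of these, 3 held a let-7 match, where 7.52% (Gdf3), 16.2% (Acvr1b) and 24.4% (Tgfbr1) of 3′UTRs of similar length hold one. AGCACTT was in 5 of the 10, where the share among 3′UTRs of similar length was 21.3% (Inhbb), 35% (Pmepa1), 41.2% (Tgfbr1), 60.9% (Tgfbr2) and 20.7% (Zfyve9). Gdf3 rose with loss of Lin28a in both Trim71 states, and so did Acvr1b, by 0.24 ± 0.0594 (SE; limma adjusted p = 0.00362) and 0.29 ± 0.0594 (SE; adjusted p = 0.000989). Tgfbr1 rose by 0.29 ± 0.0788 (SE; limma adjusted p = 0.00771) with Trim71 lost and was not called with Trim71 intact. Skil, which also held a let-7 match, differed by -0.22 with Trim71 intact and -0.06 with Trim71 lost, and neither was called. Any part of let-7 in these values was not tested.

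With loss of Trim71 in Lin28a-intact clones, the calls of Inhbb, Pmepa1, Tgif1, Zfyve9, Tgfbr1 and Gdf3 and that of Smad7 were each lost when clones E3 and C1 or the 2 genotypes were fitted alone. The difference of Inhbb was then 0.74 (limma adjusted p = 0.0512) and 0.89 (0.0525), that of Pmepa1 0.36 (0.189) and 0.53 (0.0988), and that of Smad7 0.21 and 0.29. These differences kept their sign. With loss of Trim71 in Lin28a-null clones, the calls of Acvr1b and Tgif1 were lost in each clone set alone. That of Gdf3 was lost in clones E3 and C1 alone, and those of Inhbb and Pmepa1 were kept in both sets.

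**Figure D4:**
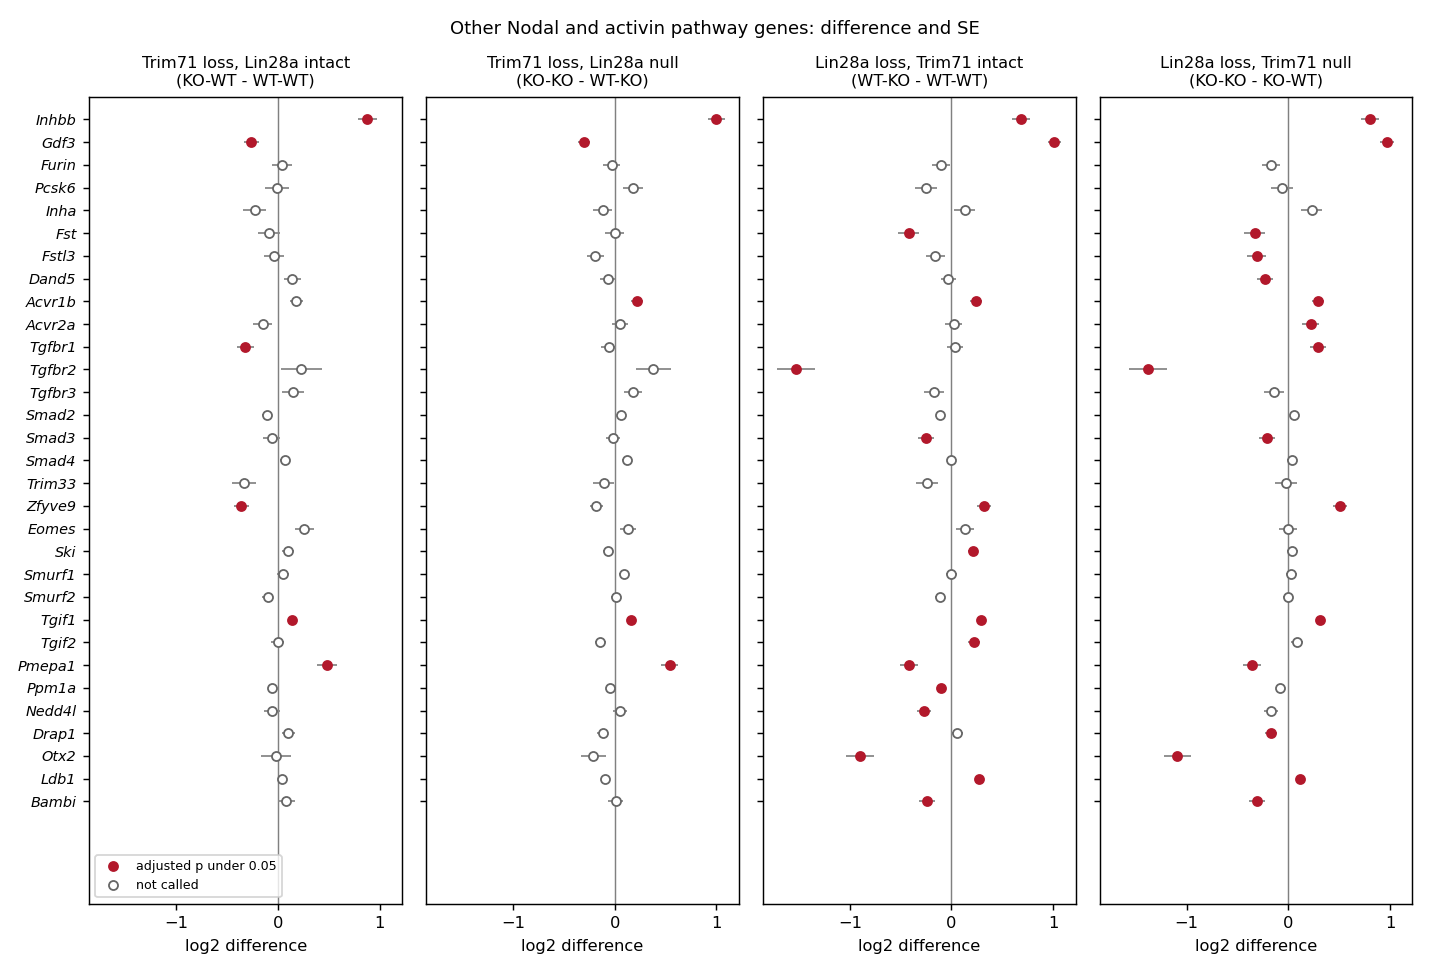
Log2 difference and SE of the 31 tested genes of the wider Nodal and activin pathway in 4 contrasts; filled points have an adjusted p under 0.05 and open points do not. Inhbb lay at 0.88, 1.00, 0.68 and 0.80, Pmepa1 changed sign between the Trim71 and Lin28a panels, and Tgfbr2 and Otx2 fell in both Lin28a panels.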

How the data were processed

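The authors deposited 1 table of normalised values for 21685 genes in 19 mRNA libraries, made with the Illumina TruSeq RNA kit per the labels' protocols. The submitters' processing notes name CASAVA 1.8, STAR and DESeq2; the build, counting rule and normalisation are not given in the sources used here. The deposited values are log2 levels, judged from their range (-0.71 to 16.3). Summed as powers of 2, a library held 7297919 to 7677445, which is not a read depth, so precision is given by the spread between libraries.

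Differences between days had been removed: with genotype in the fit the largest day term was 1.7e-08, against 2.87 with days shuffled. KO-WT replicate 5, the only library of its day, differed from the KO-WT mean without it by at most 1.5e-08 and was left out. The tests covered the 14988 genes (69.1%) that reached a linear level of 10 in 4 or more libraries. Limma 3.58.1 in R 4.3.3 (trend) fitted genotype and day over 18 libraries, with 10 residual degrees of freedom, and p-values were adjusted by Benjamini and Hochberg over all tested genes. A gene is called at an adjusted p under 0.05. Libraries are paired by the day in the labels; whether same-day libraries deviate together could not be checked, because day differences were removed. In simulated data for KO-WT against WT-WT (14988 genes, 200 changed by 1 log2 unit, 5 runs), this fit recovered 99.5% and made 5.26% false calls, against 35.1% false without day.

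The genes, gene lists and tests were chosen with earlier results of these data known. Besides the 8 genes, up to 4 higher and 4 lower called genes of the pathway list were named per contrast, and the 3 tested genes with the highest correlation for Nodal, Lefty1 and Lefty2. Acvr1b and Tgfbr1 values in the let-7 comparison, and the values of Smad2, Smad3, Smad4 and single markers, were chosen after their values were seen. Sequence searches were also chosen after values were seen: the AGCACTT search followed the let-7 search, and GCACTTT and upstream motifs were looked at without being reported. 3′UTRs and transcript lengths came from GENCODE M21 on GRCm38, and microRNAs from RefSeq. Alternatives changed the day term, filter, clones, genotypes fitted, scaling, GC content and length, or left out each library.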

Additional observations from a re-analysis of the deposited data

Results flagged for a closer look

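Tdgf1 in WT-WT replicate 2, at 12.44, stood apart from the other 3 WT-WT libraries at 12.41 to 12.42, with a gap of 0.846 of the whole range of the group. It was the only such value in 72 groups of 4 or 5 libraries checked, and chance flags about 1 in 20 groups. The range itself spans 12.41 to 12.44.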

How the results depend on the processing

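Counts of called genes are given in the order all tested genes, the 8 genes and the pathway list where each moved by more than 1.5 times; the cause was not tested. Without the replicate block (day left out), KO-WT against WT-WT gave 4219, 5 and 10 calls, KO-KO against WT-KO 2618 and, for the list, 9, and the interaction 673 and, among the 8 genes, 1. In clones E3 and C1 alone, KO-WT against WT-WT gave 10, 0 and 0, KO-KO against WT-KO 153, 1 and 2, WT-KO against WT-WT 2323 and 7 for the list, KO-KO against KO-WT 3595 and 9 for the list, and the interaction 1 gene. In clones 1 and 1-4 alone these were 344, 2 and 3, then 287, 1 and 3, then for KO-KO against KO-WT 2293 and 7 for the list, and 0 for the interaction. With the 2 compared genotypes alone, KO-WT against WT-WT gave 30, 0 and 0, and KO-KO against WT-KO 794. Correction for GC content and length gave 3 of the 8 genes in KO-WT against WT-WT, 8 in KO-KO against KO-WT and 0 interaction genes, and turned Tdgf1 in WT-KO against WT-WT from -0.01 to 0.12. Of 117 counts, 83 stayed within 1.5 times. These include the counts with KO-WT replicate 5 added, which could hardly move.

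Leaving out each library gave 528 (without WT-WT replicate 4) to 1978 calls, 1 to 2 of the 8 genes and 3 to 7 of the list in KO-WT against WT-WT. It gave 676 (without WT-KO replicate 4) to 1392, 3 to 5 and 4 to 5 in KO-KO against WT-KO, 5384 to 6553, 5 to 6 and 14 to 17 in WT-KO against WT-WT, and 5382 to 6590, 4 to 5 and 11 to 17 in KO-KO against KO-WT, the last low at 11 without KO-WT replicate 1. The interaction gave 0 to 4 genes, with 0 of the 8 and 0 of the list throughout. The 1206 single-gene differences under these fits include those not called in the main fit, which had no call to lose. Of the 1206, 33 lost the call (6 among the 8 genes' differences and 27 among the list's), and none that was called changed sign. Skil gained a call in 5 fits of WT-KO against WT-WT and Lefty1 in 2 of KO-WT against WT-WT. Nodal gained 1 in KO-KO against WT-KO. Adding KO-WT replicate 5 back, an alternative chosen after seeing the data, moved no difference by more than 1.42e-14. As the only library of its day it is absorbed by its own day term, so this fit could not have shown a change. Scaling to the 75th percentile moved the median of all genes by at most 0.019, and correction for GC content and length by at most 0.039. The unknown depth limits the weakest genes.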
